A study of Mus musculus with 6 samples.

Results

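The regions described here are stretches of open chromatin at gene ends that were called on day 0 and not on day 1 in mouse pre-adipocytes of brown fat, the heat-producing adipose tissue. The assay was ATAC-seq, which reads out where a transposase can cut DNA that nucleosomes leave free. The 3 day 0 libraries carry the treatment label WT, and the 3 day 1 libraries are labelled as 1 day into brown adipocyte differentiation, with no genotype given. All 6 carry the cell line label BAT, and the labels used here give no allele, inducing agent, age or sex and do not say whether replicates were separate cultures. The series title concerns deletion of RUNX1 or RUNX2, and none of the 6 labels names a deletion. Merging all peaks of the 6 lists that shared 1 bp or more gave 68913 regions on chromosomes 1 to 19, X and Y. A member had a peak in 3 of 3 day 0 lists and in 0 of 3 day 1 lists, and its midpoint lay 1 kb or less from the start or the end of a protein-coding gene. There were 760 members, which is 5.97% of the 12727 regions at gene ends. The members were chosen by the presence and absence of a peak in the 6 lists, so these counts, and the strength of the same peaks, are descriptions and carry no test.

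In active genes the stretch around the transcription start is usually held open by transcription factors and the polymerase machinery. In mammals many starts sit in CpG islands, stretches rich in the CpG dinucleotide that are open in most cell types, while starts poor in CpG tend to be open in fewer cell types. AP-1, a dimer of Jun and Fos proteins, binds a short palindrome and is a common factor at open chromatin of mesenchymal precursor cells. SRF with its MRTF cofactors drives genes of the actin cytoskeleton, and actin remodelling is part of how a fibroblast-shaped precursor becomes a round adipocyte.

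Promoters of 6 members are printed because the motif and CpG results below turn on such sequences. Each is 300 bases from RefSeq on the GRCm38.p6 build, from 250 bases before the gene start to 50 after it, 5′ to 3′ on the strand of the gene. In the first 4, capitals mark the AP-1 letters TGAGTCA or TGACTCA. In the last 2, capitals mark each CpG dinucleotide, of which Acta2 holds 6 and Tpm4 holds 31. The windows are chr5:92348840-92349139 on the minus strand for Cxcl10 and chr11:72301379-72301678 on the plus strand for Xaf1. Those of Uba7 and Col6a1 are chr9:107975317-107975616, plus strand, and chr10:76725995-76726294, minus strand. Those of Acta2 and Tpm4 are chr19:34255324-34255623, minus strand, and chr8:72135038-72135337, plus strand. Xaf1 and Uba7 were picked after their values were seen.
Cxcl10: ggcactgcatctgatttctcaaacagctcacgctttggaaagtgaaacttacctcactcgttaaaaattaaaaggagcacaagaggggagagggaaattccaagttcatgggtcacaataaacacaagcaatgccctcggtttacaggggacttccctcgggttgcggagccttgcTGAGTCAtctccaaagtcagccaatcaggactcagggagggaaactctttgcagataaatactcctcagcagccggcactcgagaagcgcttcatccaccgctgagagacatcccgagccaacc
Xaf1: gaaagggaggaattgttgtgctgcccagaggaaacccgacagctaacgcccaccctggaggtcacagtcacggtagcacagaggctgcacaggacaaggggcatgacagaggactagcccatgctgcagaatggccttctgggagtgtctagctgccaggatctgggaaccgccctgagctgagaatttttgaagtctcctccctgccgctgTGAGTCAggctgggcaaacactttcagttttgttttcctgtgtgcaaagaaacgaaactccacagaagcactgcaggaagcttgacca
Uba7: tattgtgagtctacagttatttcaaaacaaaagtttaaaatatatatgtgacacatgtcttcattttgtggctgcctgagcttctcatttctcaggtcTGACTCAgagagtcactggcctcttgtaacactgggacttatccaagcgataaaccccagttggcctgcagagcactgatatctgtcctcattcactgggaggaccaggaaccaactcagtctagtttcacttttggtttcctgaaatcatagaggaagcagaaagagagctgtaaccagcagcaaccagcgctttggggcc
Col6a1: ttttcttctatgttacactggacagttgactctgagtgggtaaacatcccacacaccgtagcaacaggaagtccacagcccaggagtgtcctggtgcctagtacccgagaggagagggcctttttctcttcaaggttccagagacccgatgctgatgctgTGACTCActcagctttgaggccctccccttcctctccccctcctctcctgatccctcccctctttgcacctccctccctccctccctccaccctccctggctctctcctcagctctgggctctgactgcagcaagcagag
Acta2: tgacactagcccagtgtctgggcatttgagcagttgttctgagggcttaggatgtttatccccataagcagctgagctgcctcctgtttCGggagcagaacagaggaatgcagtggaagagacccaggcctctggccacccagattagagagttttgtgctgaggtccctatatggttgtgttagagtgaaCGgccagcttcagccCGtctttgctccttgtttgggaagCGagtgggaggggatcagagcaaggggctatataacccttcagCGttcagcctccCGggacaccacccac
Tpm4: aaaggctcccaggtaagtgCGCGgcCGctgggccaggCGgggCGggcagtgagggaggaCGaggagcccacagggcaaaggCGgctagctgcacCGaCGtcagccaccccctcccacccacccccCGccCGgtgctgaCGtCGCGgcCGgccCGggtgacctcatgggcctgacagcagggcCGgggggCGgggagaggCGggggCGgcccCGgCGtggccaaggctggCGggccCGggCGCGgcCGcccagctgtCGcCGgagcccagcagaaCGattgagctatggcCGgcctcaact

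The members were narrower and weaker than the other gene-end regions called in every day 0 library. Strength is given as the fold enrichment the authors' peak caller reported, which divides the fragment pileup at the summit by the background nearby in that library. The median width was 405 bp for members, 584 bp for the 2299 gene-end regions with 3 of 3 day 0 lists and 1 or 2 of 3 day 1 lists, and 765.5 bp for the 5540 gene-end regions in all 6 lists. A merged region spans the peaks of every list that called it, so calls in more lists can widen it. The median of the mean day 0 fold enrichment was 6.69 for members, 7.97 for the partly kept regions and 11.8 for those in all 6 lists. Member values ran from 3.07 to 15.4, with the middle of the distribution between 5.59 and 8.01 (quartiles). Within a member the 3 day 0 libraries differed with a median coefficient of variation of 15.6%. Replicate 1 was the highest of the 3 in 401 members, replicate 2 in 199 and replicate 3 in 160.

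Fragment and peak numbers both differed between the days. The libraries held 8127635 to 11011889 fragments and 39211 to 55511 peaks on day 0, against 4919755 to 7302457 fragments and 12556 to 23274 peaks on day 1. Peak number did not follow fragment number within day 1, since replicate 3 had the most fragments (7302457) and the fewest peaks (12556). The median rank of the members by q was 25737.5 of 55511 peaks in day 0 replicate 1, 24738 of 41993 in replicate 2 and 23723 of 39211 in replicate 3. Those ranks exceeded the whole length of all 3 day 1 lists. When each library kept only its 12556 strongest peaks, here called equal lists, 64 gene-end regions were day 0 only and 363 were day 1 only, whereas the deposited lists gave 760 and 22 (0.173%). Of the 760 members, 30 (3.95%) were in all 3 equal day 0 lists and 607 were in none. Scaled to the fragments of the library, the mean day 0 height of 98, 162 and 360 members exceeded the median height of the called peaks in day 1 replicates 1, 2 and 3. It was below the 5th percentile of those heights for 56, 25 and 14 members and below the lowest of them for 12, 1 and 0. Without day 1 replicate 2 the count of members was 1310, and without day 0 replicate 3 it was 1243. The day and the number of fragments and peaks cannot be told apart in these lists. Nor can fewer cells with an open region and a less open region in every cell be told apart in these bulk libraries.

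The share of regions that were day 0 only was lower at gene ends than elsewhere, as a count without a test. It was 5.97% at gene ends (exact binomial 95% interval 5.57 to 6.40, counting error only) and 20.1% in the 56186 regions farther than 1 kb from any coding gene end. Among the gene-end regions with 3 of 3 day 0 lists, 8.84% had no day 1 call. The share ranged over the numbered chromosomes from 4.91% on chromosome 10 to 7.96% on chromosome 1, was 3.81% on chromosome X, and the single gene-end region on chromosome Y was no member. Within 1 kb the members were denser near the gene end, with 491 in the first 500 bp and 269 in the next 500 bp. They were less concentrated there than the other classes. Of all 12727 gene-end regions, 9943 lay in the first 500 bp. The median distance was 279 bp for members, 150.5 bp for partly kept regions and 124 bp for those of all 6 lists. The 500 bp beyond the limit held 237 day 0 only regions. At the limit itself, Cntnap1 (midpoint 1000 bp from the end, mean fold enrichment 8.84) and Vim (998.5 bp, 9.07) fell inside. Slc7a5 (5.35) and Rims2 (8.66) fell outside by 1 bp or less.

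The members lay at the far end of a gene more often than the other classes did. Of the 579 members whose nearest gene has a strand in the RefSeq promoter table, 417 were at the gene start and 162 (28.0%) at the far end, where transcription stops. The far-end share was 7.76% (141 of 1817) in the partly kept regions and 1.54% (70 of 4544) in those of all 6 lists. Among regions with a mean fold enrichment between 5.59 and 8.01 the shares were 25.1% (73 of 291), 7.93% (58 of 731) and 3.25% (13 of 400) in the same order. Above 8.01 they were 41.5%, 7.76% and 1.32%. For 157 of the 162 far-end members no start of the table lay within 1 kb. When day 0 lists were cut to their strongest peaks and day 1 lists kept as deposited, 11 of 18 members with a strand (61.1%) were at a far end. These shares were not tested, because neighbouring regions of one set of libraries are not replicates.

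**Figure D1:**
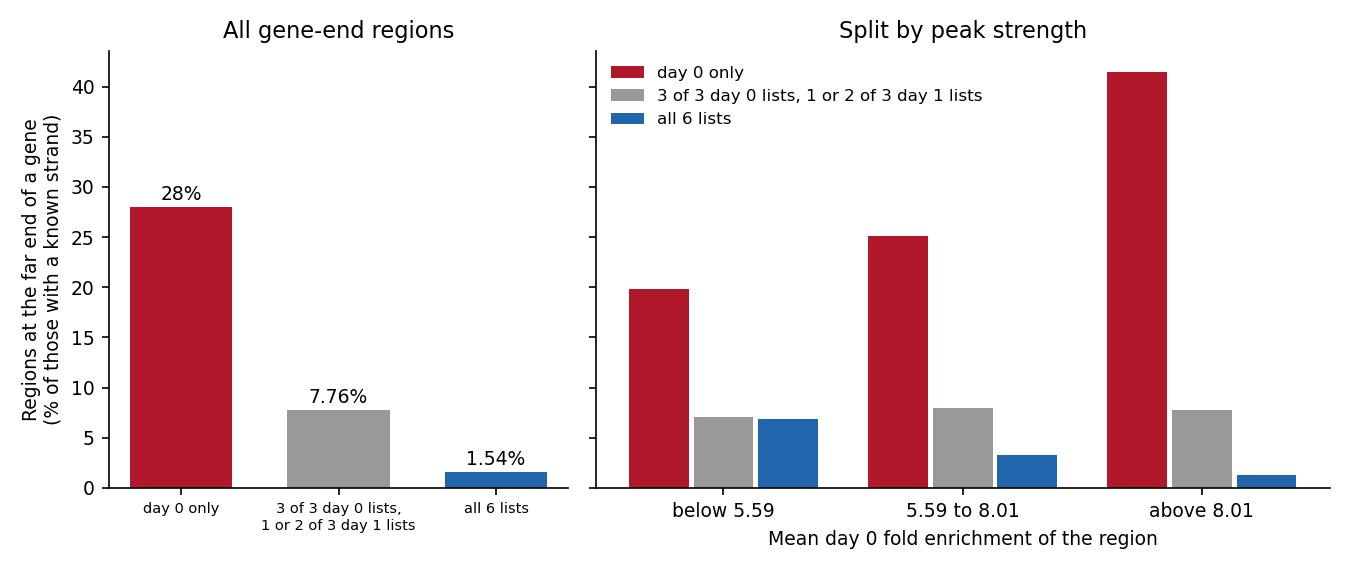
Share of gene-end regions that lie at the far end of a gene, in percent of regions whose nearest gene has a known strand, for all regions (left) and split by mean day 0 fold enrichment (right). The day 0 only bars are the tallest in each band, at 19.9%, 25.1% and 41.5% from weak to strong.

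Most member genes had no gene-end region in any day 1 list. The members lay within 1 kb of an end of 798 protein-coding genes, 3.65% of the 21883 coding genes and 6.96% of the 11467 with any gene-end region. Without day 1 replicate 2 the number of genes was 1374, and without day 0 replicate 3 it was 1294. Of the 798, 489 (61.3%) had none on day 1, and 152 had a separate gene-end region in all 6 lists. The rule itself bars a day 1 call at the member, and the same share over other genes was not counted. Where the member was at the start, 52 of 438 genes (11.9%) kept another end region in all 6 lists. Where it was at the far end, 62 of 188 (33.0%) did. Regions of all 6 lists with a strand lay at a gene start in 98.5%. A member at the start thus takes the place where such a region usually lies, and the rule in part sets this contrast. Close neighbours were rare, with 67 members 1 kb or less from a region of all 6 lists. A total of 28 genes had more than 1 member, led by Tagln2, a transgelin that binds actin, and Vipr1, a receptor for vasoactive intestinal peptide, with 3 each.

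The 12 strongest members belonged to genes of unlike function. First came the predicted gene Gm536 at chr16:31617827-31618230, with a fold enrichment of 16.7, 14.3 and 15.1 in day 0 replicates 1, 2 and 3. Slc7a12, an amino acid transporter, had 13.8, 19.1 and 13.0 at chr3:14505905-14506446. Otogl, an otogelin-like protein of inner ear matrix, had 15.7, 13.3 and 14.8. Every one of these values stood above the member median of 6.69.
The member of Ice2, a subunit of the little elongation complex that serves small nuclear RNA genes, was at the far end of the gene, with 14.1, 15.9 and 13.2. Nrgn encodes neurogranin, a calmodulin-binding protein of neurons, and its start region at chr9:37552647-37552869 had 17.5, 13.7 and 11.6. Trim12c, of the tripartite motif family, had 14.99, 16.7 and 11.03. No replicate was the highest throughout: replicate 1 led at Gm536, Otogl and Nrgn, and replicate 2 at Slc7a12, Ice2 and Trim12c.
The other 6 had means between 13.1 and 14.2. They were Abi3bp, an extracellular matrix protein, Dtx3, a ubiquitin ligase of the deltex family whose region also lay near Pip4k2c, and Jrk, a nuclear DNA-binding protein. Zbp1, a sensor of nucleic acids in the Z form, Krtap1-5, a hair keratin-associated protein, and Zfp738, a zinc finger protein, completed them. All 12 were among the 30 members that were also in all 3 equal day 0 lists.

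Genes of the actin cytoskeleton and targets of SRF held more members than the average list, with 9 of 36 genes (25%, against 3.65% of all coding genes). These were 9 of the 27 list genes with any gene-end region (33.3%, against 6.96%). Acta2, smooth muscle alpha-actin, had 5.72, 7.096 and 8.74 at a region 427.5 bp from its start, whose promoter is printed above. Tagln, transgelin, had 9.89, 7.11 and 7.08, and Tagln2 had 6.85, 6.64 and 5.53. Neither Acta2, Tagln nor Tagln2 had any gene-end region in a day 1 list.
Lmod1, leiomodin, which nucleates actin filaments, had 9.52, 5.89 and 5.07, Myl9, a regulatory myosin light chain, had 6.36, 5.52 and 5.42, and the tropomyosins Tpm2 and Tpm4 had means of 5.43 ± 1.28 and 4.496 ± 0.498 (SD, n = 3). Zyx, zyxin of focal adhesions, and Vim, the intermediate filament vimentin, had their members at the far end, with means of 9.22 ± 2.47 and 9.07 ± 1.04. Lmod1, Zyx and Vim each had a separate gene-end region in all 6 lists, and Tpm2 and Tpm4 had one in at least 1 day 1 list. In equal lists, 0 of the 36 genes had a day 0 only gene-end region. The family of myosins and sarcomere genes, which shares 5 of these genes, had 13 of 104 (12.5%), led by Synm (8.18 ± 0.759), Xirp1 (8.01 ± 1.82) and Myo7a (7.25 ± 1.12).

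**Figure D2:**
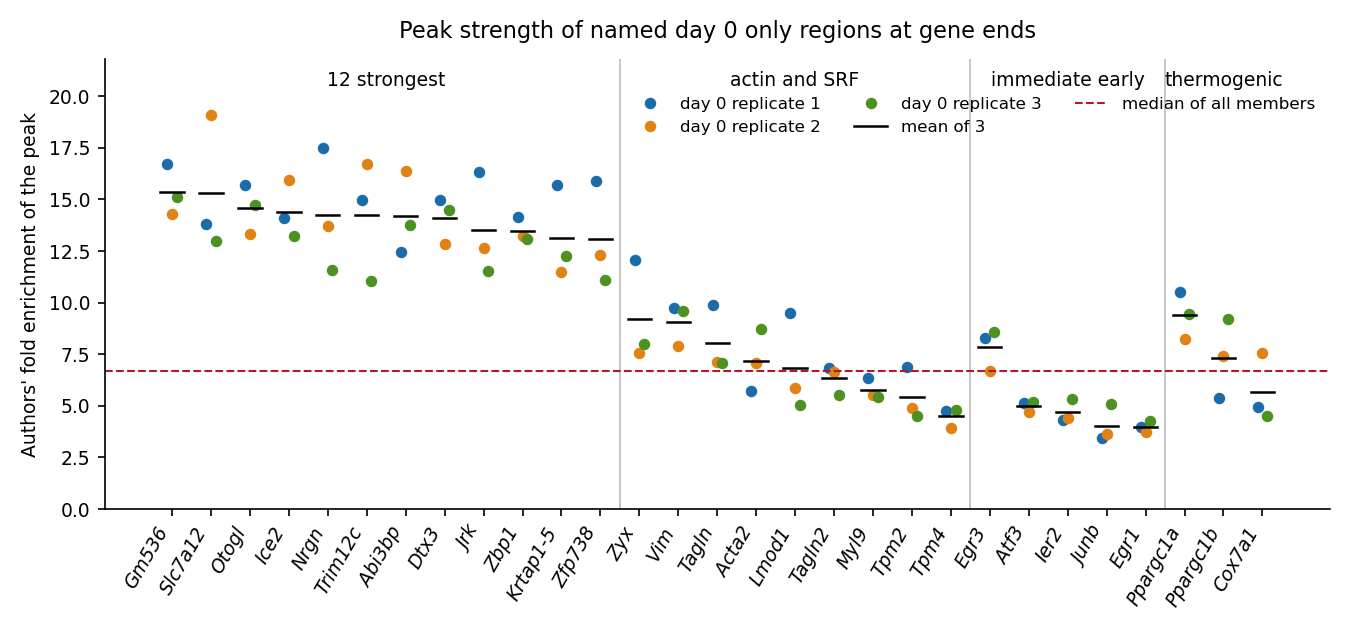
Fold enrichment given by the authors for each day 0 library (points) and its mean (black bar), for the 12 strongest members and the members of the actin and SRF, AP-1 and immediate early, and thermogenic lists. All 12 strongest lie above the dashed median of 6.69, and the immediate early members other than Egr3 lie below it.

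AP-1 and immediate early genes, which switch on within minutes of a stimulus, held 5 members in 23 genes (21.7%). The share over all coding genes was 3.65%. Of the 16 list genes with any gene-end region, these 5 made up 31.25%, against 6.96% for all coding genes with such a region. Egr3, a zinc finger factor, had 8.30, 6.68 and 8.59 and no gene-end region on day 1. Atf3, a stress-induced bZIP factor, had 5.12, 4.69 and 5.17, and Ier2, a short nuclear protein, had 4.34, 4.43 and 5.32. Junb, an AP-1 subunit, had 3.45, 3.62 and 5.07 at a region 34.5 bp from its start. Egr1 had 3.99, 3.75 and 4.26. Atf3, Junb and Egr1 each kept another gene-end region in all 6 lists, and Ier2 had one in at least 1 day 1 list. In equal lists 0 of the 23 genes had a day 0 only gene-end region.

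Of the 24 thermogenic and brown fat genes, 3 (12.5%, against 3.65% of all coding genes) held a member. Ppargc1a, the coactivator PGC-1 alpha that drives mitochondrial and heat-producing programmes, had 10.5, 8.22 and 9.46 at chr5:52115846-52116418, 279 bp from its start. The start is the outer limit of the gene in the RefSeq table. Alternative starts inside a gene were not counted as gene ends. Its relative Ppargc1b had 5.40, 7.39 and 9.22, and Cox7a1, a subunit of cytochrome c oxidase found in muscle and brown fat, had 4.93, 7.56 and 4.49. The 3 genes had no gene-end region in any day 1 list, and their regions were in 2, 1 and 0 of the 3 equal day 0 lists. Of the 29 lipid genes of mature adipocytes, the lipid droplet coat gene Plin4 (5.29 ± 0.427) and Gpd1, which makes glycerol phosphate (3.82 ± 0.547), held a member, and both also had a gene-end region in all 6 lists. Of the 25 precursor genes only Foxc2, a forkhead factor, did (5.59 ± 0.859). None of the 24 adipogenic transcription factors and none of the 7 genes of the RUNX list held one. The RUNX list was Runx1, Runx2, Runx3, Cbfb, Runx1t1, Cbfa2t2 and Cbfa2t3, of which 4 had any gene-end region. Runx1 and Runx3 had none in any list.

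Extracellular matrix genes held members in 5 of 40 genes (12.5%, against 3.65% of all coding genes), namely Fbln5 (fibulin 5 of elastic fibres, 7.36 ± 0.525), Col8a1 (6.63 ± 0.612), Col6a1 (5.16 ± 1.06) and the pair Col4a1 and Col4a2, which share 1 region between their starts (4.07 ± 0.303). In equal lists the count was 0 of 40. Among matrix proteases, Plat, tissue plasminogen activator, had 8.90, 8.58 and 12.7 and Mmp2, a gelatinase, had 8.32, 6.27 and 5.74, 2 of 28 genes. The cAMP and glucocorticoid list held 4 of 42 (Creb5, Adcy4, Prkar2a and Adcy3) and the axon guidance list 6 of 71, led by Sema3d (7.01 ± 1.96). Creb5, a relative of CREB, had 9.70, 8.72 and 9.62, with little difference between libraries. Among signalling lists, Wnt held 2 of 52 (3.85%), TGF-beta and BMP 3 of 52 (5.77%) and FGF 1 of 36 (2.78%). The YAP, TAZ and TEAD list held 1 of 23 (4.35%). These shares lay near the 3.65%. The Notch and Hedgehog list is not reported here. Chromatin regulators held 6 of 64 (9.38%), led by the lysine acetyltransferases Kat6b (9.96 ± 1.26) and Kat5 (9.45 ± 0.713). The Kat6b region was at the far end of the gene. The Kat5 region lay 955.5 bp from the far end of Kat5 and overlapped the promoter window of the neighbouring gene Rnaseh2c.

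Genes of inflammation and of interferon responses spanned the range of strength. Cxcl10, a chemokine induced by interferon, had 15.6, 8.41 and 9.14 at chr5:92348813-92349109, 72 bp from its start. Cx3cl1, the chemokine fractalkine, had 12.1, 8.85 and 6.95, and Ccl7, a monocyte chemokine, had 8.55, 7.95 and 9.89. The chemokine and interleukin list held 6 of 92 genes (6.52%), against 3.65% of all coding genes. A group of TNF superfamily, receptor and TNF-induced genes held 7 of 47 (14.9%), led by Tnfsf18 (8.84 ± 2.37). The 7 include Tnfaip1 and Tnfaip2, which are neither ligands nor receptors of the superfamily. The others of that group had means of 5.05 to 6.66, below the member median of 6.69, and Ccr10 of the chemokine list had 4.56 ± 0.559. The interferon-induced family held 7 of 141 (4.96%), led by Trim12c (14.2 ± 2.92), Irf7 (9.64 ± 1.90) and Gbp7 (8.13 ± 1.01), a share near the 3.65% of all coding genes. Its weakest were Irf4 (6.31 ± 1.69) and Trim30d (5.94 ± 0.28). Xaf1, an interferon-induced partner of the apoptosis inhibitor XIAP, had 15.2, 12.8 and 8.78. Uba7, the activating enzyme of the ubiquitin-like protein ISG15, had 13.9, 8.95 and 9.54. At Cxcl10, Cx3cl1, Xaf1 and Uba7 replicate 1 was the highest. A pair of half-sites of the interferon response element, searched on both strands after seeing the data, stood in 17 of 314 member promoters (5.41%), in 2.37% of promoters with a region in all 6 lists and in 3.35% of all promoters.

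Several large gene families lay near the 3.65% background. Among them were kinesin, dynein and cilium genes with 14 of 340 (4.12%) and ubiquitin ligases with 10 of 335 (2.99%). Zinc finger genes named Zfp held 17 of 394 (4.31%), solute carriers 13 of 387 (3.36%) and G protein-coupled receptors 10 of 231 (4.33%), led by Vipr1 (10.9 ± 0.867), Mc1r (8.83 ± 1.33) and Calcrl (8.68 ± 3.28). Olfactory and vomeronasal receptors lay far below it with 1 of 1463, and 15 of the 1463 had any gene-end region. Some groups of genes used by nearly every cell type held few members although most of their genes had a gene-end region. Cytosolic ribosomal proteins held 1 of 103 (Rpl8), mitochondrial ribosomal proteins 0 of 78 and glycolysis and TCA cycle genes 0 of 49. Housekeeping controls held 0 of 15, a list too short to set a 0 apart from 3.65%. Oxidative phosphorylation subunits, with 3 of 96 (3.125%), and cell cycle genes, with 2 of 42 (4.76%), lay near the background. Of the 798 genes, 537 were in none of the 30 lists and 35 families.

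**Figure D3:**
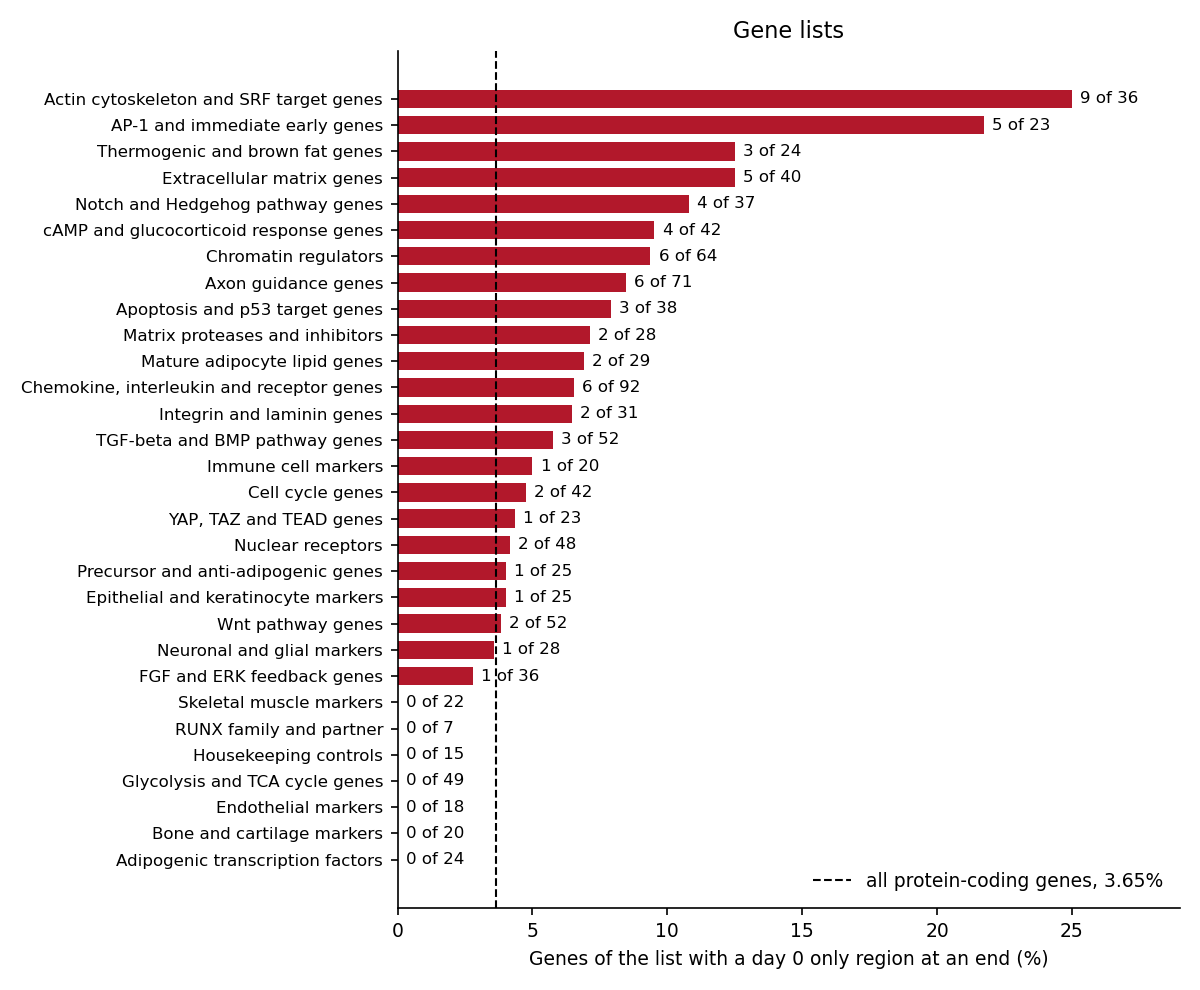
Share of the genes of each list with a day 0 only region at an end, in percent, with the number of genes beside each bar and the share of all protein-coding genes (3.65%) as a dashed line. The actin and immediate early lists reach 25% and 21.7%, and 7 lists are at 0.

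Markers of other cell types had gene-end peaks less often than precursor and mature lipid genes did. For scale, 11467 of the 21883 coding genes had a gene-end region in at least 1 of the 6 lists. The counts are from the deposited lists, which were longer on day 0 than on day 1. Of 20 immune markers 5 to 7 had a gene-end peak per day 0 library and 0 to 2 per day 1 library, of 18 endothelial markers 2 to 4 and 0 to 3, and of 28 neuronal markers 4 to 7 and 2 to 5. Skeletal muscle markers had 2 to 4 and 2 to 3 of 22, bone and cartilage markers 4 to 8 and 1 to 3 of 20, and epithelial markers 4 to 6 and 1 to 3 of 25. Of 25 precursor genes 15 to 17 had one on day 0 and 12 to 14 on day 1, and of 29 mature lipid genes 17 to 18 and 17 to 20. Single markers of 3 such lists held a member: Cd14 (6.41 ± 1.69), Cldn3 (6.26 ± 0.874) and Tubb3 (7.55 ± 0.957). The part of other cell types in the members was not tested.

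The promoters of members held fewer CpG dinucleotides than those of the other open classes. Of the 798 genes, 608 matched the RefSeq promoter table, and 314 windows of 287 genes overlapped members and no other gene-end region. The median number of CpG dinucleotides per 300 bases was 17 in these, 21 in windows with partly kept regions, 23 in windows with regions of all 6 lists and 5 in windows with no gene-end region. Windows with fewer than 5 CpG made up 11.5%, 3.24%, 1.09% and 46.5% in the same order. Acta2, with 6, and Tpm4, with 31, printed above, show the range within the actin list. At fold enrichments between 5.59 and 8.01 the medians were 17, 22 and 26 for the 3 open classes, and above 8.01 they were 11, 19 and 23.

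AP-1 letters, searched on both strands as TGAGTCA or TGACTCA, stood in 30 of the 314 member windows (9.55%). The share was 3.53% in windows with partly kept regions, 2.63% with regions of all 6 lists, 5.60% with no gene-end region and 4.66% in all 21262 windows. Strong members carried most of it: above a fold enrichment of 8.01 the share was 22.7% (17 of 75), between 5.59 and 8.01 it was 4.35% (7 of 161) and below 5.59 it was 7.69% (6 of 78). In windows with regions of all 6 lists it was 2.59%, 3.01% and 2.33% in those bands. Without day 1 replicate 2 the member share was 6.13% (41 of 669), and in equal lists it was 17.9% (5 of 28). Windows with the letters were poor in CpG, with a median of 7.5 against 17 in member windows without them. The first base of the letters lay at -38 in Xaf1, -74 in Cxcl10, -90 in Col6a1 and -152 in Uba7, counted in bases from the gene start.

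Other motifs differed in both directions. ETS letters (CCGGAAG) stood in 8.28% of member windows, 19.6% of partly kept ones, 24.2% of those in all 6 lists and 11.6% of all windows. GC box letters (GGGCGG), which contain a CpG, stood in 55.7%, 66.1%, 73.2% and 46.2%. RUNX letters (TGTGGTT or TGTGGTC) stood in 9.55%, 6.89%, 6.38% and 8.42%. EBF letters (CCCNNGGGA) stood in 11.8%, 8.52%, 7.22% and 7.26%, and TATA box letters (TATAAA) in 10.2%, 6.95%, 5.16% and 12.6%. In windows with no gene-end region the ETS and GC box shares were 4.97% and 29.4%. The RUNX, EBF and TATA box shares there were 9.60%, 6.66% and 17.3%. The RUNX share of members was thus near that of windows with no gene-end region. The CArG box bound by SRF was searched after seeing the data in its strict consensus only, which misses boxes with a mismatch such as many actin genes carry. That form was found in 3 member windows (0.955%), those of Myl6, Myl9 and Prickle3, and in 1.52% of all windows. A match of letters is a description and not a bound site.

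Peaks in the interior of the member genes, more than 1 kb from either end, were not used to choose them. The genes were still chosen by day from the same libraries, so the tests below are not independent of that choice. In the deposited lists the share of the 758 member genes longer than 2 kb with such a peak was 54.5%, 47.1% and 45.8% in day 0 replicates 1 to 3 and 30.2%, 33.5% and 19.9% in day 1 replicates 1 to 3. The groups did not overlap, with 49.1 ± 4.69% against 27.9 ± 7.09% (SD, n = 3 each), a difference of 21.2 percentage points. The exact two-sided permutation test gave p = 0.1, the smallest that 3 libraries against 3 allow. In equal lists the shares were 20.6%, 20.3% and 21.9% against 19.9%, 20.3% and 19.9%, a difference of 0.88 percentage points (exact permutation p = 0.2). The same shares over all coding genes were 36.7 ± 4.07% and 20.4 ± 5.42% in the deposited lists and 15.03 ± 0.157% and 14.5 ± 0.199% in equal lists. For all coding genes, which were not chosen by day, the exact permutation test gave p = 0.1 in both kinds of list. These p-values therefore do not set the member genes apart from coding genes at large. Peak number per library moved with the deposited difference.

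**Figure D4:**
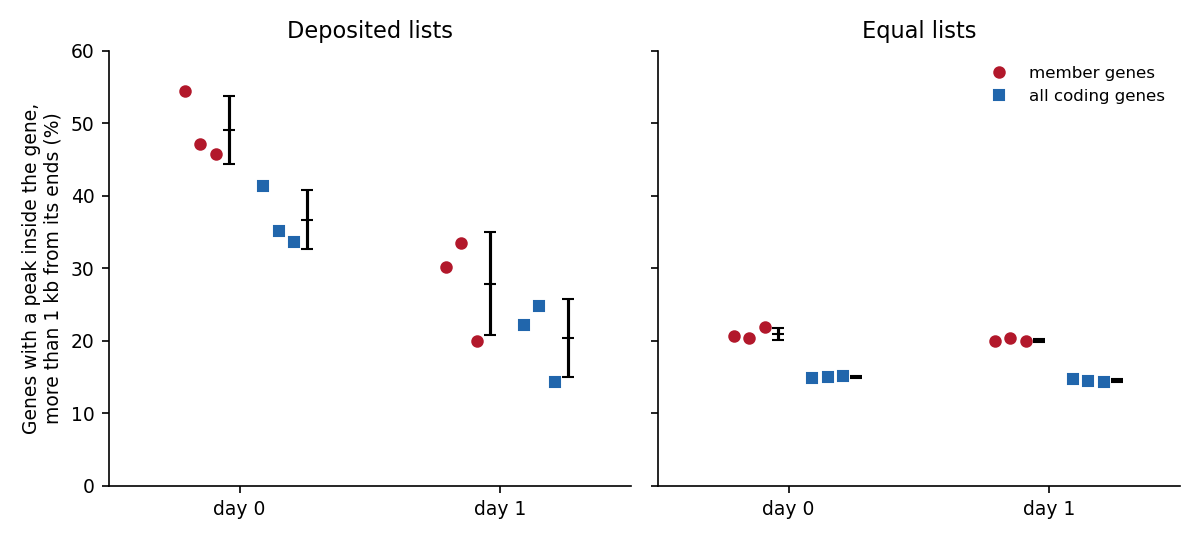
Share of genes with a peak more than 1 kb inside the gene, in percent, for member genes (circles) and all coding genes (squares), 1 point per library with the mean and SD of 3. Day 0 lies above day 1 in the deposited lists, and the days nearly coincide in equal lists at about 20.9% and 20.1% for member genes.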

How the data were processed

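The 6 peak lists were called per library by MACS2 2.2.7.1 with paired-end fragments, no control, a q cutoff of 0.05 and a local background of 10000 bp, per the file headers. The build was mm10, per the submitters' processing notes. The deposited pileup is an unscaled signal in fragments at the summit, the deposited fold enrichment is a ratio that divides it by the local background, and the deposited −log10 p and −log10 q compare the same values. The summit position and the peak length in bp are given per the file headers. P-values from 3 libraries a day measure only the spread between libraries.

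Python 3.11.15 with pandas 2.3.3, NumPy 2.4.6 and SciPy 1.17.1 merged peaks and assigned midpoints to coding genes of the RefSeq table for GRCm38.p6, the reference behind mm10. Strand and promoters came from the promoter table, which covers 17491 coding genes. A region was counted at a gene start or a far end by its nearest gene. Scaled height was the pileup divided by the fragments in the header. Equal lists kept 12556 peaks per library, ranked by q. The exact binomial interval was Clopper-Pearson. The region count recovered 200 of 200 planted members on simulated data.

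The members, the gene lists and the tests were chosen with earlier results of these data known. Of 1039 listed gene names 1037 matched. Named were the 12 strongest members, up to 4 genes per list and 3 per family by mean fold enrichment, all genes of the thermogenic, adipogenic, precursor, AP-1 and RUNX lists, and the 2 regions on each side of the 1 kb limit. Other genes, among them Xaf1, Uba7, Tagln2, Prickle3, Ccr10, Irf4, Trim30d and the rest of the actin list, were named after their values were seen. Alternatives were equal lists, a −log10 q of at least 5, shortened day 0 lists, 50% overlap, limits of 500 bp and 2 kb, summits, leaving out each library and a replicate block.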

Additional observations from a re-analysis of the deposited data

How the results depend on the processing

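The number of members was 64 in equal lists, 30 with strong day 0 lists against deposited day 1 lists, 491 within 500 bp and 1209 within 2 kb, and it ranged from 814 to 1310 when 1 library was left out. The number of genes was 69, 32, 515 and 1313 under those settings, with 854 to 1374 over the left-out libraries. Equal lists held 33 of the 798 genes. The share of gene-end regions that were day 0 only was 0.803%, 0.312%, 4.94% and 7.52% in the same order, 8.01% at a −log10 q of at least 5, and 6.42% to 10.4% over the left-out libraries. The far-end share was 34.0%, 61.1%, 21.7% and 32.0%, then 22.7% at the stricter q, and 20.2% to 27.5% over the left-out libraries. Requiring 50% overlap or placing regions by the mean day 0 summit moved none of these 4 by more than its limit (counts 1.5 times, shares the 95% interval). Fewer peaks enter equal and shortened lists, and a left-out library makes the rule easier to meet. For the far-end share the cause was not tested, and this and the motif and list counts were added after seeing the data. Outside equal and shortened lists, where each had 0, the actin list held 7 to 13 member genes, the immediate early list 3 to 7 and the matrix list 4 to 10. The genes themselves changed at the stricter q, which kept 507 of the 798 (63.5%). In the actin list Lmod1, Myl9, Tpm2 and Tpm4 were then no longer members, and Cald1, Lpp and Mylk were. In the matrix list Col5a1 and Col6a3 stood in place of Col4a1 and Col4a2. The immediate early list kept its genes and gained Myc. AP-1 letters stood in 0 of 6 member windows with shortened day 0 lists. The interior difference was 17.3 to 24.1 percentage points over the left-out libraries, 22.4 at the stricter q and 0.88 in equal lists. With the replicate number as a block, the exact sign-flip test of that 21.2-point difference gave p = 0.25, the smallest it allows with 3 pairs. That p-value too is not independent of the choice of genes, which came from the same libraries. Over 9136 regions in all 6 lists, log2 scaled height was taken as the deviation from the mean of its day. Between same-numbered libraries these deviations correlated at -0.0364, 0.0544 and 0.00809. Between libraries of unlike number they correlated at -0.0744 to 0.0643. Whether equal numbers mark paired cultures is not in the labels and cannot be told from these values.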
